A study of Homo sapiens with 17 samples.

Results

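Polycomb repressive complex 2 (PRC2) subunits are described here in SF8628, an established cell line of diffuse midline glioma (DMG) with the K27M mutation of histone H3.3, as 10 genes of the 60664 in the expression table. The members were selected by their place in the complex, namely *EZH2*, *EZH1*, *SUZ12*, *EED* and *RBBP7* of the core and *PHF1*, *MTF2*, *PHF19*, *JARID2* and *AEBP2* of the accessory subunits. The list states no expression value, but it was drawn up with the comparison of AZD5153 with DMSO in these libraries known. The calls at 24 and 48 hours are therefore given as a description of the fit across all genes, and nothing is read from how many members were called. Cells grown as monolayers received either the vehicle DMSO or AZD5153 at 1 μM, an inhibitor of the bromodomains of BET proteins, and RNA was taken at 24 and 48 hours. Each of the 4 groups had 3 RNA-Seq libraries, and all groups share the same K27M-mutant line, so no cells with wild-type histone H3 stand beside them.

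PRC2 places methyl groups on lysine 27 of histone H3, a mark of genes held silent through development. EZH2 or its paralog EZH1 carries the catalytic site, SUZ12 and EED hold the complex together and are needed for its activity, and RBBP4 or RBBP7 binds histones. The core pairs either with a Polycomb-like protein (PHF1, MTF2 or PHF19), which makes the form called PRC2.1, or with JARID2 and AEBP2, which makes PRC2.2. EZH2 is typical of dividing cells and EZH1 of resting cells, and genes of the E2F pathway drive *EZH2* and *EED* in many cell types. The K27M histone binds PRC2 and restrains it, and the methylation that remains in K27M-mutant glioma still depends on the complex.

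The libraries held 15759148 to 27335220 reads on genes (median 20737337). A normalized count is the number of reads of a gene over its library's size factor, and changes are given as log2 fold changes of the normalized count + 1 from a limma fit of the 4 groups over the 15599 genes that averaged at least 10. A gene was called at a Benjamini-Hochberg adjusted p-value under 0.05. Replicate 1 of DMSO at 24 hours stood apart from its replicates (chi-square per degree of freedom 16.8 and 25.6, against 2.12 to 5.21 for the other pairs of replicates), and values that turn on it are given without it. The labels do not say that replicates were separate cultures, so the p-values measure only the spread between these libraries. Of 8 glioma cell markers, 5 had a mean above 10, while *OLIG1* and *OLIG2*, which define the oligodendrocyte lineage, were at 0 and *PDGFRA* had a mean of 2.66. Of 5 immune cell markers none reached 10 and 3 were at 0, and among the other cell types 2 of 5 neuron, 2 of 4 endothelial and 2 of 4 epithelial markers had a mean above 10. In bulk RNA, fewer cells of a type and less RNA per cell cannot be told apart.

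The promoters of 4 members are shown, for the member with the deepest fall, the pair of catalytic paralogs that moved in opposite directions and the member called lower at the earlier and higher at the later time. The sequences are from RefSeq on GRCh38.p14, run 5′ to 3′ on the strand of the gene and cover 220 bases, from 250 to 31 bases before the start site. Capitals mark matches to the E2F words TTTCCCGC, TTTGGCGC, TTTCGCGC and TTTGCCGC and to the CCAAT box, each on either strand (ATTGG is CCAAT read from the other strand). No matches overlap in these 4 windows.
PHF19, chr9:120877219-120877438, - strand: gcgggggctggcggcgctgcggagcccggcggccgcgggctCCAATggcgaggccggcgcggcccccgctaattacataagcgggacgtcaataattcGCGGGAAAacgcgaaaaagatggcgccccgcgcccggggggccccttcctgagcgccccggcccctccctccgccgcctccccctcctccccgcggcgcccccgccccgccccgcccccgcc
EZH2, chr7:148884322-148884541, - strand: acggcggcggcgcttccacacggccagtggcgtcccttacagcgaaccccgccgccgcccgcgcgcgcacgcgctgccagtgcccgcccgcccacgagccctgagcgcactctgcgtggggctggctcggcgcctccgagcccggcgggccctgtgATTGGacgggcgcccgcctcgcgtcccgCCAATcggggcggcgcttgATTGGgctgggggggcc
SUZ12, chr17:31936757-31936976, + strand: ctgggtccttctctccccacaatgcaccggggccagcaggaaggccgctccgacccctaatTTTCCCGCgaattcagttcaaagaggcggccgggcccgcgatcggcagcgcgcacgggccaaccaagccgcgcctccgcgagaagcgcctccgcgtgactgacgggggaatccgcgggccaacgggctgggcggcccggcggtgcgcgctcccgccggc
EZH1, chr17:42745071-42745290, - strand: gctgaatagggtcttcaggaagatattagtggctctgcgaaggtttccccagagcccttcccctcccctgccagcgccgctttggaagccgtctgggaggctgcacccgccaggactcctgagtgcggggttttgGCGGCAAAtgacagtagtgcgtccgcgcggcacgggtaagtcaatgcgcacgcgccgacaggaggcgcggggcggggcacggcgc
The motifs were chosen after the promoters had been seen. All 10 members had a window, that of *AEBP2* at a start 1107 bases from its main one. An E2F word was present in 4 of the 10 members (*PHF19*, *SUZ12*, *EZH1* and *AEBP2*) and in 2.45% of 34943 promoter windows of this length. A CCAAT box was present in 4 of 10 (*EZH2*, *PHF19*, *JARID2* and *RBBP7*) and in 29.8% of the windows, and the *EZH2* window held 3. A match is a description of the letters and not of binding, and the part of these motifs in the members' changes was not tested.

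The first comparison asked how the transcripts of PRC2 changed with AZD5153 at each time. At 24 hours 7 members were lower (*EZH2*, *SUZ12*, *EED*, *RBBP7*, *PHF19*, *MTF2* and *AEBP2*), *EZH1* was higher, and *PHF1* and *JARID2* were not called. Of all genes tested, 33.9% were called higher and 34.6% lower at that time, and the median log2 fold change of the members was -0.52 against 0.00037 over all genes tested. At 48 hours 6 members were lower (*EZH2*, *EED*, *RBBP7*, *PHF19*, *JARID2* and *AEBP2*), *EZH1* and *SUZ12* were higher, and *PHF1* and *MTF2* were not called. The corresponding background was 33.1% higher and 33.9% lower, with a median of -0.25 for the members and 0.0011 over all genes.

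**Figure D1:**
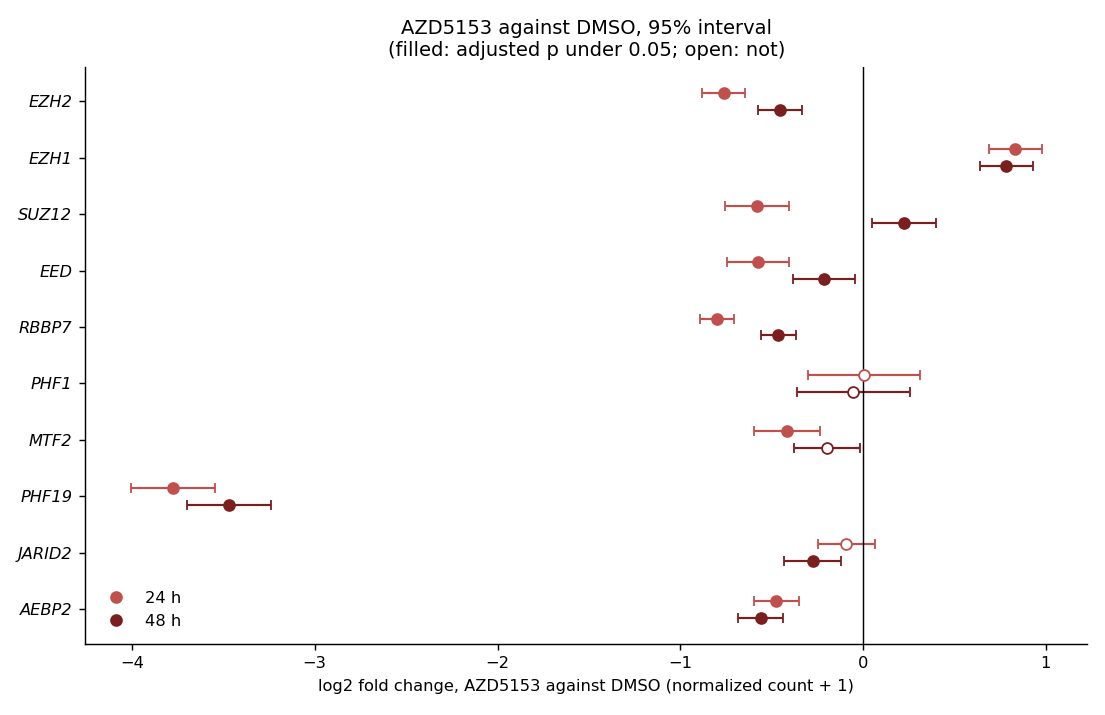
Log2 fold change of each PRC2 member with AZD5153 against DMSO at 24 hours (light) and 48 hours (dark), with its 95% interval. *PHF19* lies far to the left at both times (-3.78 and -3.47), *EZH1* to the right (0.83 and 0.78), and *SUZ12* crosses 0 between the times. Filled points had an adjusted p-value under 0.05 in limma.

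*PHF19*, a Polycomb-like protein that binds CpG-rich DNA and helps recruit PRC2.1, had the deepest fall among the members. The gene spans chr9:120855651-120894896 on the minus strand (GRCh38, GENCODE 44), and its promoter, the first of those shown, lies inside that span, before the start of the main transcript. Its normalized counts were 2386, 2661 and 2753 in the 3 DMSO libraries at 24 hours and 202, 180.2 and 184 in the AZD5153 libraries. The lowest DMSO library thus stood far above the highest AZD5153 library. At 48 hours the counts were 2285, 2240.3 and 2092 in DMSO and 172, 185 and 244 in AZD5153, again without overlap. The log2 fold change was -3.78 ± 0.11 (SE) at 24 hours (adjusted p = 1.1e-13), against -3.47 ± 0.11 at 48 hours (adjusted p = 3e-13), which is 13.7-fold and 11.1-fold lower. Only 114 of the 15599 genes tested had a lower log2 fold change at 24 hours and 265 at 48 hours. Between the times the effect differed by 0.31, with a 95% interval from -0.02 to 0.63 that includes 0 (adjusted p = 0.16).

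**Figure D2:**
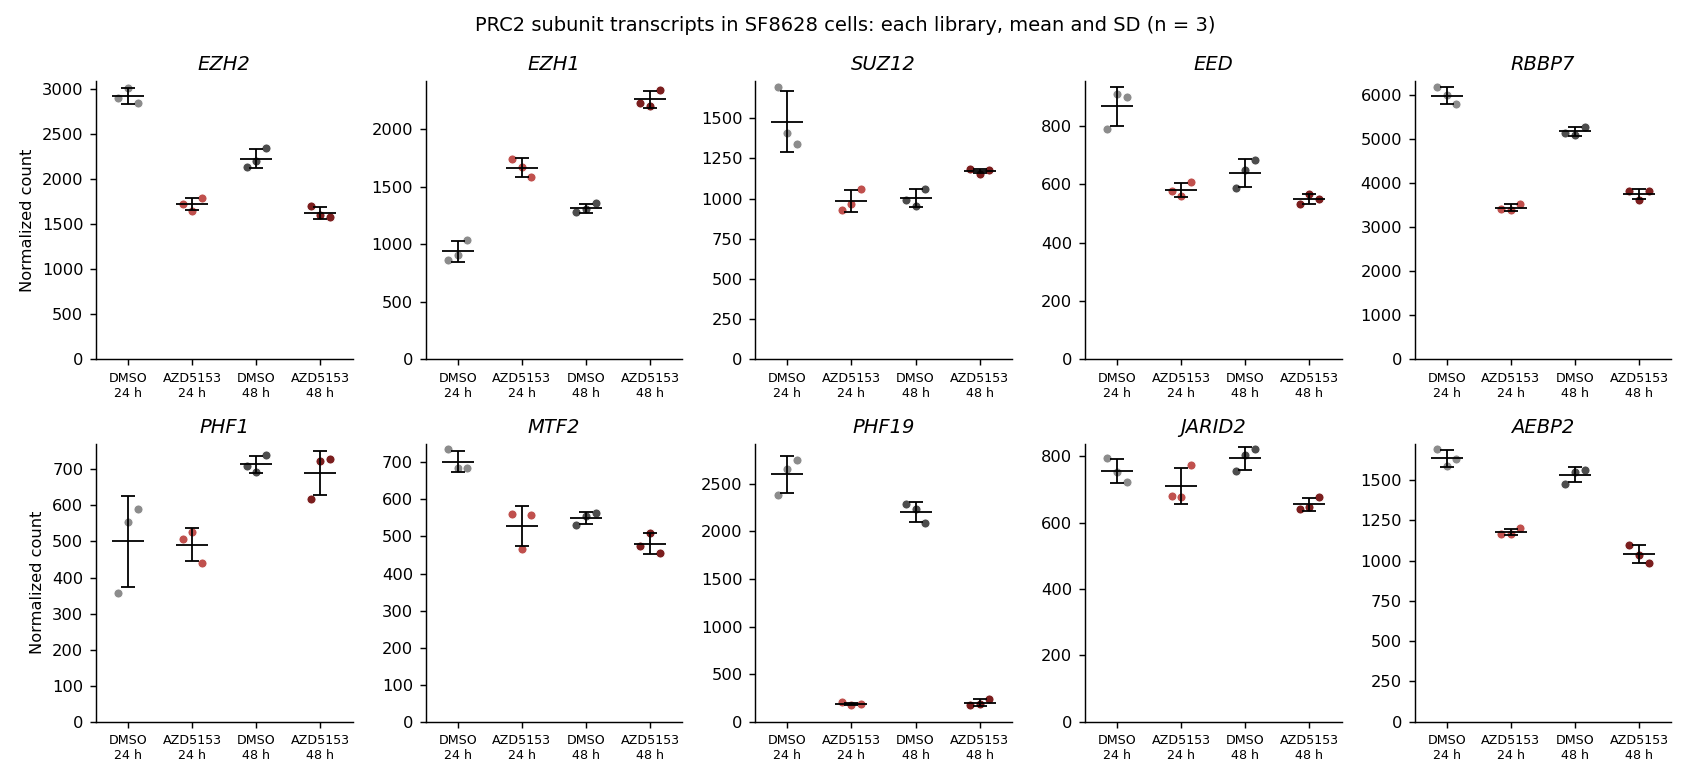
Normalized counts of the 10 members in each of the 12 libraries (points), with the mean and SD of each group (n = 3). Every AZD5153 library of *EZH2*, *RBBP7*, *AEBP2*, *EED*, *MTF2* and *PHF19* is below every DMSO library of its time, every AZD5153 library of *EZH1* is above, and *SUZ12* is below at 24 hours and above at 48 hours. Each panel has its own vertical scale, starting at 0.

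Of the catalytic subunits, *EZH2* fell and *EZH1* rose. *EZH2*, at chr7:148807257-148884321 on the minus strand, stood at 2894.5, 3011 and 2837 normalized counts in DMSO at 24 hours and at 1723, 1645 and 1786 in AZD5153. After 48 hours the values were 2127.5, 2200.4 and 2339 in DMSO and 1692, 1597 and 1571 in AZD5153. The groups of a time did not overlap, and the DMSO libraries were themselves lower at 48 than at 24 hours. The fitted change was -0.76 ± 0.06 (SE) at 24 hours (adjusted p = 5.9e-09), or 41.0% lower, and -0.46 ± 0.06 at 48 hours (adjusted p = 2.5e-06), or 27.1% lower.

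*EZH1*, at chr17:42700275-42745049 on the minus strand, had 865, 909 and 1036 normalized counts in DMSO at 24 hours and 1744, 1672 and 1580.1 in AZD5153. At the later time it had 1279, 1305 and 1355 in DMSO and 2231, 2206 and 2344 in AZD5153. Each AZD5153 library exceeded every DMSO library of its time, and the 48-hour AZD5153 libraries were the highest of the 12. The rise was 0.83 ± 0.07 on the log2 scale at 24 hours (adjusted p = 2.3e-08), or 1.78-fold, and 0.78 ± 0.07 at 48 hours (adjusted p = 4.7e-08), or 1.72-fold. The effects at the 2 times differed by -0.05, with a 95% interval from -0.26 to 0.16 (adjusted p = 0.75), and by 0.006 without replicate 1 of DMSO at 24 hours.

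Set against each other per kilobase of exon, *EZH1* made up a larger share of the catalytic transcripts with AZD5153. Its share of *EZH1* plus *EZH2* was 31.5%, 31.8% and 36.02% in the DMSO libraries at 24 hours and 61.0%, 61.0% and 57.7% in the AZD5153 libraries. At 48 hours the mean share was 47.7% ± 0.47 (SD, n = 3) in DMSO and 68.3% ± 1.35 in AZD5153. All AZD5153 libraries lay above all DMSO libraries of either time. The shares are given as values with no test. They also depend on the length used, since the exons of *EZH2* cover 10774 bases and its longest transcript 4502. Per kilobase of the longest transcript the shares were 23.8% and 48.5% in DMSO and AZD5153 at 24 hours, and 36.5% and 57.6% at 48 hours.

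**Figure D3:**
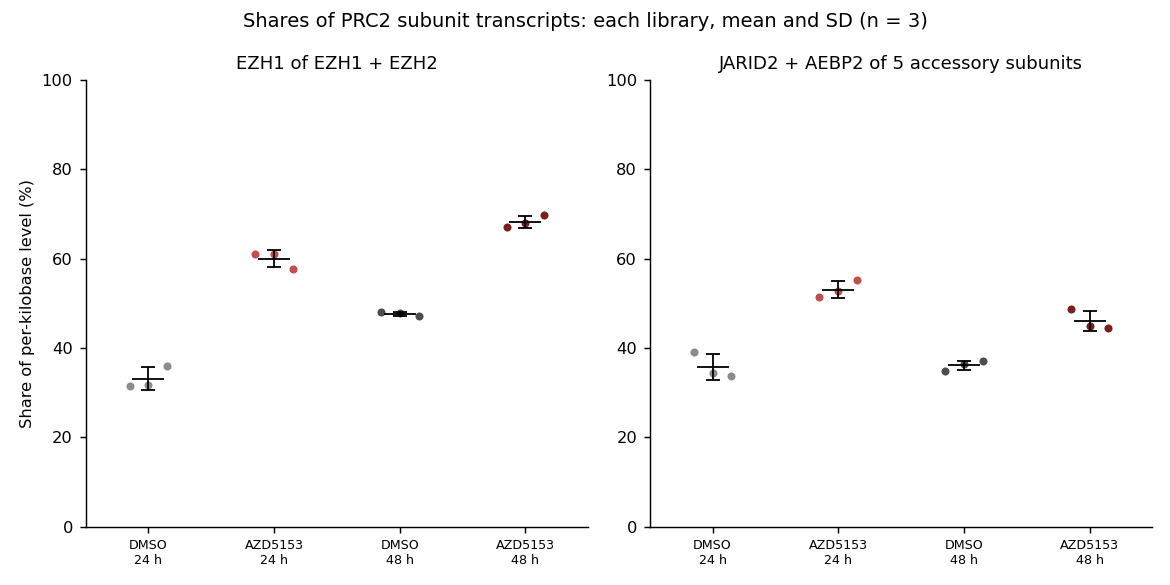
Share of *EZH1* in *EZH1* plus *EZH2* (left) and of *JARID2* plus *AEBP2* in the 5 accessory subunits (right), as percent of the level per kilobase of exon in each library, with the mean and SD of each group (n = 3). Both shares are higher in every AZD5153 library than in every DMSO library of the same time.

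Among the other core subunits, *RBBP7* and *EED* were lower at both times, and *SUZ12* was lower at 24 and higher at 48 hours. *RBBP7*, a histone-binding WD40 protein also found in other chromatin complexes, lies at chrX:16839283-16870362 on the minus strand. It had 6169, 5991 and 5788 normalized counts in DMSO and, after 24 hours of AZD5153, 3396, 3391 and 3523. The 48-hour counts were 5134, 5093 and 5276 in DMSO against 3815, 3614 and 3807.5 in AZD5153. The groups did not overlap at either time. Its log2 fold change came to -0.80 ± 0.04 at 24 hours (adjusted p = 2.2e-10), against -0.46 ± 0.04 at 48 hours (adjusted p = 1.5e-07). The exons of *RBBP7* overlap those of *TXLNG* on the opposite strand, which had means of 1435 and 1472 in DMSO and AZD5153 at 24 hours (adjusted p = 0.62) and 1137 and 1151 at 48 hours (adjusted p = 0.83). Whether the counting used the strand was not stated, so reads of such pairs cannot be told apart.

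*EED*, the WD40 subunit that reads trimethylated lysine 27, lies at chr11:86201212-86278813 on the plus strand, and a long noncoding RNA gene on the opposite strand overlaps its exons. Its normalized counts at 24 hours were 791, 911 and 901 in DMSO and 578, 560.1 and 607 in AZD5153, and at 48 hours 587, 649 and 682 in DMSO and 533, 567 and 550.2 in AZD5153. At 48 hours the highest AZD5153 library was only just below the lowest DMSO library. The fold change on the log2 scale was -0.57 ± 0.08 at 24 hours (adjusted p = 9.6e-06), against -0.22 ± 0.08 at 48 hours (adjusted p = 0.026). The 48-hour call was lost without replicate 2 of DMSO at 48 hours (-0.20), replicate 3 of it (-0.17), or replicates 1 (-0.19) or 3 (-0.22) of AZD5153 at 48 hours, and when libraries were scaled to 7 stably expressed genes (-0.21) or by quantiles (-0.16). Scaled to equal totals, the 48-hour value was -0.39.

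*SUZ12*, the scaffold on which the other subunits assemble, lies at chr17:31937007-32001038 on the plus strand and was the member whose effect moved most between the times. In DMSO at 24 hours it stood at 1694, 1407 and 1337 normalized counts, with replicate 1 the highest, and in AZD5153 at 932, 964.5 and 1059. At 48 hours it stood at 994, 957 and 1061 in DMSO and at 1183, 1156 and 1179.9 in AZD5153. AZD5153 was below DMSO in every library at 24 hours and above it in every library at 48 hours. On the log2 scale the change was -0.58 ± 0.08 at 24 hours (adjusted p = 1.2e-05), or -0.48 without replicate 1 of DMSO, and 0.23 ± 0.08 at 48 hours (adjusted p = 0.024). The 48-hour call was lost when libraries were scaled to equal totals (0.05) or by quantiles (0.19), and without replicates 1 (0.22) or 2 (0.19) of DMSO or replicates 1 (0.22) or 3 (0.22) of AZD5153 at 48 hours. Its near-identical copy *SUZ12P1*, with which reads may be shared, had means of 183 and 150.2 at 24 hours and 216 and 146 at 48 hours in DMSO and AZD5153, and its log2 fold change at 48 hours was -0.57 (adjusted p = 0.0015).

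The accessory subunits of PRC2.1 other than *PHF19* changed less. *MTF2*, a Polycomb-like protein at chr1:93079235-93139079 on the plus strand, had 736, 685 and 686 normalized counts in DMSO and, after 24 hours of AZD5153, 560.5, 466 and 557. The 48-hour counts were 531, 555 and 563 in DMSO against 474, 511 and 455 in AZD5153. The groups did not overlap at either time. The log2 fold change was -0.42 ± 0.08 at 24 hours (adjusted p = 4.2e-04), against -0.20 ± 0.08 at 48 hours, with a 95% interval from -0.38 to -0.02 but an adjusted p of 0.053. The 48-hour value passed the threshold with TMM factors (-0.21), with edgeR (-0.21), with DESeq2 (-0.20), when libraries were scaled to equal totals (-0.37), with a minimum mean of 100 (-0.20) and with only the 2 groups compared (-0.20). It also passed without replicate 1 of DMSO at 24 hours (-0.20), replicate 2 of AZD5153 at 24 hours (-0.20) or replicate 2 of AZD5153 at 48 hours (-0.24). With quantiles it shrank to -0.10 (adjusted p = 0.31 in limma).

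*PHF1*, the remaining Polycomb-like protein, at chr6:33410399-33416453 on the plus strand, had 356, 554 and 590.2 normalized counts in DMSO and 508, 525 and 441 in AZD5153 at 24 hours. Replicate 1 of DMSO was the lowest of these 6, and the groups overlapped. At 48 hours the values were 708, 693 and 741 in DMSO and 619, 723 and 728 in AZD5153, again with overlap. The fitted change was 0.005 at 24 hours, with a 95% interval from -0.30 to 0.31 (adjusted p = 0.98), and -0.05 at 48 hours, from -0.36 to 0.25 (adjusted p = 0.76). Without replicate 1 of DMSO, the library that stood apart, the 24-hour value was -0.22 and was called lower (adjusted p = 0.031), and without replicate 1 of AZD5153 at 48 hours the 48-hour value was 0.02. The exons of *PHF1* overlap those of *CUTA* on the opposite strand, whose 24-hour mean was 1922 with DMSO and 798 with AZD5153 and whose 48-hour mean was 2029 and 871, so a change of *PHF1* cannot be told apart from reads of *CUTA*.

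Both defining subunits of PRC2.2 were lower at 48 hours, and *AEBP2* also at 24 hours. *AEBP2*, a zinc finger protein that stabilises the complex, lies at chr12:19404045-19720801 on the plus strand. Its normalized counts were 1689.6, 1587 and 1629.7 in DMSO and, after 24 hours of AZD5153, 1168, 1163 and 1199.5. The 48-hour counts were 1478, 1552 and 1565 in DMSO against 1095, 1035 and 985 in AZD5153. The groups were well apart at both times. Its log2 fold change came to -0.47 ± 0.06 at 24 hours (adjusted p = 2.3e-06), against -0.56 ± 0.06 at 48 hours (adjusted p = 3.3e-07), and the effects differed by -0.09, with a 95% interval from -0.26 to 0.09 (adjusted p = 0.48).

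*JARID2*, a catalytically inactive Jumonji protein that recruits PRC2 and is itself a substrate of it, lies at chr6:15246069-15522042 on the plus strand. It had 794, 752 and 721 normalized counts in DMSO and 678, 677 and 772 in AZD5153 at 24 hours, and the groups overlapped through replicate 3 of AZD5153. At 48 hours it had 755, 803 and 822 in DMSO and 641, 646 and 676 in AZD5153, without overlap. The fold change on the log2 scale was -0.09 at 24 hours, with a 95% interval from -0.25 to 0.06 (adjusted p = 0.27), and -0.28 ± 0.07 at 48 hours (adjusted p = 0.0035). The 24-hour value passed the threshold when libraries were scaled to equal totals (-0.22), and the 48-hour value was then -0.45.

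Per kilobase of exon, *JARID2* and *AEBP2* together made up 39.2%, 34.5% and 33.8% of the 5 accessory subunits in DMSO at 24 hours and 51.3%, 52.6% and 55.2% in AZD5153. At 48 hours the mean share was 36.1% ± 1.07 (SD, n = 3) in DMSO and 46.0% ± 2.33 in AZD5153. The AZD5153 libraries were above the DMSO libraries at each time, and *PHF19* was the accessory subunit that lost most. Per kilobase of the longest transcript the means were 28.6% and 44.9% at 24 hours and 28.7% and 37.9% at 48 hours.

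The order of the levels per kilobase of exon shifted with AZD5153 mainly through *PHF19* and *EZH1*. *RBBP7* was the highest member in all 4 groups, with means from 468 to 815. *PHF19* ranked 2 of 10 in DMSO, with 394 ± 29.0 (SD, n = 3) at 24 hours and 334 ± 15.4 at 48 hours, and 10 of 10 in AZD5153, with 28.6 ± 1.82 and 30.4 ± 5.80. *EZH1* ranked 7 in DMSO at 24 hours, with 134 ± 12.7, and 6 at 48 hours, with 188 ± 5.53, and ranked 2 in AZD5153 at both times, with 238 ± 11.8 and 323 ± 10.6. In DMSO at 24 hours the neighbours from *PHF1* (139) through *EZH1*, *EED* and *JARID2* to *MTF2* (119) overlapped in their libraries, as did *AEBP2* with *SUZ12*. In AZD5153 at 24 hours *EZH2*, *SUZ12*, *PHF1* and *JARID2* overlapped in turn, and *MTF2* overlapped *EED*. In DMSO at 48 hours *EZH2*, *PHF1* and *EZH1* overlapped in turn and *MTF2* overlapped *EED*, and in AZD5153 at 48 hours the overlapping neighbours were *PHF1* with *SUZ12*, *AEBP2* with *EZH2* and *MTF2* with *EED*. Per kilobase of the longest transcript, *EZH2* ranked 2 in both groups at 24 hours and 3 in both at 48 hours, while *PHF19* was still the lowest member in AZD5153.

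The next comparison asked whether the AZD5153 effect differed between 48 and 24 hours. It was higher at 48 hours for 4 members, *SUZ12*, *EED*, *RBBP7* and *EZH2*, and lower for none, while 14.4% of all genes tested were called higher and 10.1% lower in this difference. The difference on the log2 scale was 0.81 ± 0.12 (SE) for *SUZ12* (adjusted p = 1.5e-04), 0.36 ± 0.11 for *EED* (adjusted p = 0.03), 0.33 ± 0.06 for *RBBP7* (adjusted p = 0.0013) and 0.31 ± 0.08 for *EZH2* (adjusted p = 0.011). For *RBBP7*, *EED* and *EZH2* the fall was smaller at 48 hours, and for *SUZ12* the sign turned. The call of *EZH2* was lost with quantile normalization (0.22), where the adjusted p was 0.068. That of *EED* was lost in 7 of the 12 fits that left out a library, with values between 0.299 and 0.371 (replicate 2 of DMSO and replicates 1 or 2 of AZD5153 at 24 hours, and replicates 1 or 2 of DMSO and 2 or 3 of AZD5153 at 48 hours), and when libraries were scaled to equal totals (0.31) or to 7 stably expressed genes (0.38) or no minimum mean was set (0.36). With quantile normalization the *RBBP7* difference was 0.18. All 4 are genes that were lower in DMSO at 48 than at 24 hours, and that comparison shares its DMSO libraries with the difference.

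In DMSO alone the comparison of 48 with 24 hours gave the change with time in culture. Here *EZH1* and *PHF1* were higher, *EZH2*, *SUZ12*, *EED*, *MTF2* and *RBBP7* were lower, and *PHF19*, *JARID2* and *AEBP2* were not called, against 16.4% of all genes higher and 19.3% lower. The rise was 0.49 ± 0.07 on the log2 scale for *EZH1* (adjusted p = 5.5e-05) and 0.55 ± 0.14 for *PHF1* (adjusted p = 0.0078), the latter 0.32 without replicate 1 at 24 hours. The fall was -0.39 ± 0.06 for *EZH2* (adjusted p = 7e-05), -0.55 ± 0.08 for *SUZ12* (adjusted p = 9.8e-05) and -0.44 ± 0.08 for *EED* (adjusted p = 5.2e-04). It was smaller for *MTF2* (-0.35 ± 0.08, adjusted p = 0.0041) and *RBBP7* (-0.21 ± 0.04, adjusted p = 0.0017). The call of *RBBP7* was lost with quantile normalization (-0.07) and with scaling to 7 stably expressed genes (-0.13). *PHF19* moved by -0.24 (95% interval -0.47 to -0.01, adjusted p = 0.10), and passed the threshold without replicate 1 of DMSO at 24 hours (-0.30), without replicate 3 of AZD5153 at 48 hours (-0.24), with only the 2 groups compared (-0.24) and with DESeq2 (-0.23).

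Proliferation genes moved beside the members. All 12 of them were lower with AZD5153 at 24 hours, against 34.6% of all genes tested, with a median log2 fold change of -1.78. At 48 hours 11 were lower and 1 was higher, against 33.9% and 33.1% of all genes tested, with a median of -1.14. The higher gene was *RRM2*, a subunit of ribonucleotide reductase named here after its values were seen, with a log2 fold change of -0.85 at 24 hours and 0.52 at 48 hours (adjusted p = 1.7e-07). Their summed level per kilobase was 13503 to 14146 in the DMSO libraries and 4131 to 4414 in the AZD5153 libraries at 24 hours, and 9784 to 10047 against 5189 to 5362 at 48 hours. *E2F2*, a transcription factor of the S phase programme, was 24.0-fold lower at 24 hours and 10.9-fold lower at 48 hours, and *MCM5*, a subunit of the replicative helicase, 5.57-fold and 4.59-fold lower. Like *EZH2*, the list was lower in DMSO at 48 than at 24 hours (10 of 12 called, against 19.3% of all genes tested). Summed over the 10 members, the level per kilobase was 2567 to 2599 in DMSO and 1614 to 1666 in AZD5153 at 24 hours, and 2288 to 2371 against 1786 to 1829 at 48 hours, and *RBBP7* was the largest term of each sum. The part of proliferation in the members' changes was not tested.

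Markers of the cell line and of other cell types moved as well, and those named here were picked after their values were seen. Of the 5 glioma cell markers tested, 4 were lower with AZD5153 at 24 hours and 3 at 48 hours, against 34.6% and 33.9% of all genes tested. At 24 hours *VIM* had 28352, 20900 and 19355 normalized counts in DMSO and 17915, 18011 and 19727 in AZD5153. Its groups overlapped, replicate 1 of DMSO was the highest, and the count of lower markers was not taken without that library. *NES*, an intermediate filament protein of neural progenitors, went from a mean of 2050 to 758 normalized counts at 24 hours and had 1993 in DMSO against 544 in AZD5153 at 48 hours, with log2 fold changes of -1.43 and -1.87. *CSPG4*, a proteoglycan of oligodendrocyte progenitors, went from 2086 to 441 and had 2933 against 864 at 48 hours (-2.23 and -1.76). The groups did not overlap for either gene at either time. The summed level per kilobase of the 8 glioma cell markers, of which *VIM* made up 77.9% to 94.1%, was 4501 to 6120 in DMSO and 3706 to 4048 in AZD5153 at 24 hours, and its highest DMSO value was 4748 without replicate 1. At 48 hours it was 3722 to 3846 and 3071 to 3373.

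The 4 endothelial markers, with *CDH5* at 0, summed to 41.0 to 46.9 in DMSO and 6.99 to 8.87 in AZD5153 at 24 hours, and 74.4 to 80.3 and 6.02 to 7.08 at 48 hours. The 2 tested, *PECAM1* and *VWF*, were lower at both times, against 34.6% and 33.9% of all genes tested. *PECAM1* made up most of the sum, with a mean per kilobase of 37.4 in DMSO and 5.59 in AZD5153 at 24 hours. Its 48-hour means were 68.2 and 3.94. The 4 epithelial markers summed to 305 to 326 in DMSO and 356 to 396 in AZD5153 at 24 hours, and 349 to 382 and 480.0 to 527.5 at 48 hours. Most of that sum was the keratin *KRT18*, with a mean per kilobase of 284 without and 354 with AZD5153 after 24 hours, and 309 against 459 at 48 hours (log2 fold changes of 0.32 and 0.57). With equal totals its 24-hour value was 0.19. *KRT8*, the keratin that pairs with *KRT18*, changed by -0.15 at 24 hours and -0.38 at 48 hours (adjusted p = 0.40 and 0.035), its groups overlapped, and the later call was lost with 7 stably expressed genes (-0.38), quantiles (-0.19), no minimum mean (-0.38) and eBayes without trend (-0.38), and without replicates 2 (-0.41) or 3 (-0.30) of DMSO or replicates 1 (-0.25) or 3 (-0.35) of AZD5153 at 48 hours. *EPCAM*, whose mean over all libraries was under 10 and which was not tested, averaged 13.3 normalized counts without and 3.89 with AZD5153 after 24 hours, and 15.6 against 2.70 after 48 hours. The cadherin *CDH1* was at 0 in every library but replicate 2 of AZD5153 at 48 hours, with 44.5. Among the developmental genes described below, *TBX3* was likewise above 0 only in that library, with 55.4. *FOXA1* had 18.5 there and at most 1.34 elsewhere, and *SOX17* (3.26), *BARX1* (3.26) and *LHX2* (2.17) were above 0 only there. The source of these reads was not tested.

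The sums of 5 neuron markers overlapped between treatments at both times, and most of each was *SYT1*, with means of 76.4 to 87.2 per kilobase. Of the 2 neuron markers tested, *SYT1* was not called and *SNAP25*, a protein of synaptic vesicle fusion, was lower at both times. Its means were 33.3 normalized counts without and 11.5 with AZD5153 after 24 hours, and 51.9 against 19.7 after 48 hours, with log2 fold changes of -1.45 and -1.36. The sums of 5 immune cell markers were at most 1.78. The part of these lists in the members' changes was not tested.

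**Figure D4:**
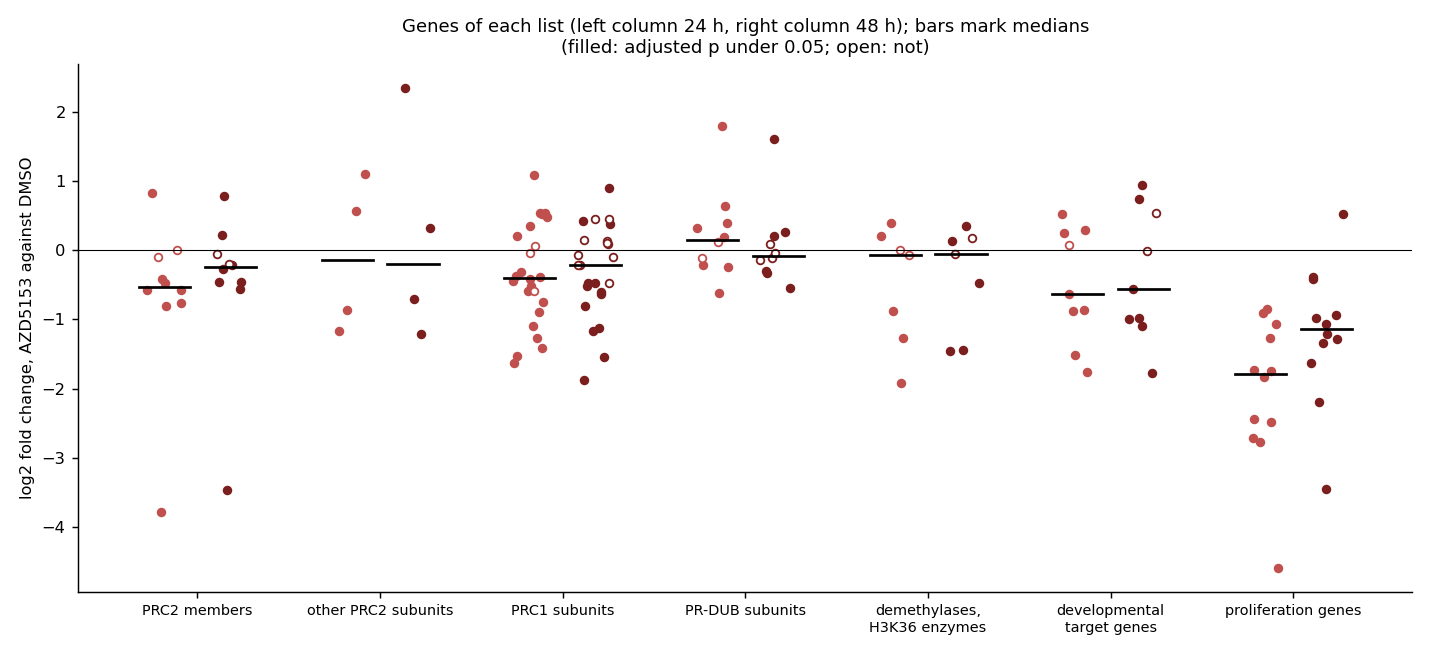
Log2 fold change with AZD5153 of the tested genes of each list at 24 hours (left, light) and 48 hours (right, dark), with the list median as a bar. The PRC2 members spread from -3.78 to 0.83 at 24 hours, and all 12 proliferation genes lie below 0 at that time. Filled points had an adjusted p-value under 0.05 in limma.

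The counts that follow stand beside all genes tested, of which 33.9% were higher and 34.6% lower at 24 hours and 33.1% and 33.9% at 48 hours. Of 6 other PRC2 subunits and inhibitors, 4 had enough counts to be tested, of which 2 were higher and 2 lower at each time. *RBBP4*, the paralog of *RBBP7*, had a log2 fold change of -0.87 ± 0.06 at 24 hours (adjusted p = 2.1e-09), against -0.71 ± 0.06 at 48 hours (adjusted p = 2.5e-08), so both histone-binding paralogs were lower. *LCORL* and its paralog *LCOR*, both listed among these other PRC2 subunits, changed in opposite directions. *LCORL* changed by -1.17 and -1.21. *LCOR* changed by 0.57 and 0.32, and its 48-hour call was lost when libraries were scaled to equal totals (0.15). *SKIDA1*, a relative of the PRC2.1 subunit EPOP, rose from a mean of 133 ± 20.7 (SD, n = 3) to 283 ± 3.11 normalized counts at 24 hours, and its 48-hour mean of 120.3 ± 16.0 in DMSO stood against 613 ± 48.2, a change of 1.10 and 2.35 on the log2 scale. *EPOP* itself and *EZHIP*, a protein that inhibits PRC2 through a K27M-like peptide, had means under 10 and were not tested.

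Among 24 subunits of PRC1, the complex that ubiquitinates histone H2A and reads the mark of PRC2, 7 were higher and 14 lower at 24 hours, and 3 higher and 10 lower at 48 hours, with medians of -0.40 and -0.21 against 0.00037 and 0.0011 over all genes tested. *RING1*, a ubiquitin ligase, rose by 0.35 and 0.43, while the noncanonical subunit *BCOR* (-1.52 and -1.87) and *PCGF2* (-1.62 and -1.54) fell. The call of *RING1* at 24 hours was lost with equal totals (0.23), and its 48-hour value was then 0.26. The summed PRC1 level per kilobase was 3712 to 4044 in DMSO and 3825 to 3914 in AZD5153 at 24 hours, and without replicate 1 of DMSO, which held the lowest value, the DMSO libraries lay at 3920 to 4044, above those of AZD5153. At 48 hours it was 3836 to 3941 in DMSO and 3850 to 3955 in AZD5153, and the groups overlapped. The count of higher PRC1 subunits at 48 hours was 6 without replicate 1 and 5 without replicate 3 of DMSO at 24 hours.

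Of 11 subunits of PR-DUB, which removes the mark of PRC1, 10 were tested, with 5 higher and 3 lower at 24 hours and 3 higher and 3 lower at 48 hours (medians 0.15 and -0.08). *KDM1B*, a demethylase of histone H3 lysine 4, rose by 1.80 and 1.61 and *ASXL1*, the cofactor of the deubiquitinase, fell by 0.61 and 0.54. The deubiquitinase *BAP1* changed by 0.19 and 0.20, and both calls were lost with equal totals (0.06 and 0.03), the earlier also with 7 stably expressed genes (0.17) and the later with quantiles (0.05). *HCFC1* changed by -0.21 and -0.33, and its 24-hour call was lost without replicates 2 (-0.19) or 3 (-0.15) of DMSO or replicate 3 of AZD5153 (-0.19) at 24 hours and with 7 stably expressed genes (-0.23). With quantiles its 48-hour value was -0.53.

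Among 7 demethylases of lysine 27 and methyltransferases of lysine 36, a mark that opposes PRC2, 2 were higher and 3 lower at each time (medians -0.07 and -0.06). *NSD2* went from 9747 ± 144 (SD, n = 3) to 2577 ± 39.9 normalized counts at 24 hours, and its 48-hour mean of 7842 ± 62.6 in DMSO stood against 2852 ± 40.4, and *NSD1* changed by -1.27 and -1.44 on the log2 scale. *ASH1L* changed by 0.21 and 0.35, and with equal totals the 24-hour call was lost (0.09) and the 48-hour value was 0.18. The counts of higher genes in this list rest on small changes and were 1 without replicate 1 of DMSO or replicates 1 or 2 of AZD5153 at 24 hours for the earlier time. For the later time the count was 1 without replicate 2 of any of DMSO at 24 hours, AZD5153 at 24 hours, DMSO at 48 hours and AZD5153 at 48 hours, or without replicate 1 of the last. The demethylase *KDM6A* changed by 0.008 and 0.18 (adjusted p = 0.93 and 0.066), and *KDM6B* by 0.39 and -0.06 (adjusted p = 0.019 and 0.73). The 24-hour value of *KDM6B* missed the threshold without replicate 1 of DMSO (0.23) or replicates 1 (0.35) or 2 (0.33) of AZD5153, with 7 stably expressed genes (0.38), with equal totals (0.27) and with only the 2 groups compared (0.39). The 48-hour value of *KDM6A* passed it with 7 stably expressed genes (0.19), with only the 2 groups compared (0.18), and without replicate 1 of DMSO at 24 hours (0.18), replicate 1 of DMSO at 48 hours (0.26) or replicate 3 of AZD5153 at 48 hours (0.23).

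Of 40 developmental genes known as PRC2 targets, 19 (47.5%) were at 0 in all libraries and 9 (22.5%) were tested. Over all 60664 genes the shares were 45.3% and 25.7%, but these include noncoding RNA genes and pseudogenes. The shares therefore cannot show whether the targets were at 0 more often than comparable genes. Of the 9 targets tested, 3 were higher and 5 lower at 24 hours and 2 higher and 5 lower at 48 hours (medians -0.63 and -0.55). The homeobox gene *MEIS2* changed by 0.25 and 0.94, with the 24-hour call lost at equal totals (0.13), and *IRX5* by 0.30 and 0.75. *IRX3*, beside *IRX5* in the same cluster, changed by -1.75 and -1.78 and *PAX6* by -1.51 and -0.99. *CDKN2A*, a cell cycle inhibitor that PRC2 keeps silent in many tumours, changed by -0.63 ± 0.16 and -1.10 ± 0.16 (adjusted p = 0.003 and 1.9e-05). The 24-hour call of *IRX5* was lost without replicate 1 of DMSO (0.13) or replicates 2 (0.24) or 3 (0.30) of AZD5153 at 24 hours. It was also lost with equal totals (0.175), 7 stably expressed genes (0.28), no minimum mean, only the 2 groups compared and eBayes without trend (0.30 in each of the last 3, where the adjusted p was 0.057, 0.11 and 0.067). The count of higher genes at 24 hours was 1 without replicate 2 of AZD5153.

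The genes whose log2 values ran most like those of *EZH2* over the 12 libraries, in a search of the 10960 genes averaging at least 100 normalized counts, were *RFWD3* (Pearson's r = 0.99), *FSTL1*, *SHLD2*, *DPY19L2P1* and *GOLT1B* (0.987). For *EZH1* they were *ALDH3B1* (0.995), *TMEM25*, *PLD3*, *CTSA* and *ZFHX2* (0.988). The libraries form 4 groups, and these values describe the pattern over groups, with no test.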

How the data were processed

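RNA-Seq libraries of SF8628 cells were grouped by the treatment and time in the labels. Per the labels and the study's methods, paired-end 150-base reads were aligned by the authors with STAR (hg38), assigned to genes by HTSeq and scaled by DESeq2, and versions, annotation and strand setting are not given in the sources used here. The deposited value of each gene and library is a signal, the gene count divided by 1 size factor per library, and 100% of the values were whole reads within a tolerance of 0.02. The deposited table also holds the authors' mean (a signal), log2 fold changes and their errors, test statistics (a score), p-values and adjusted p-values, which were not used. CUT&RUN and the JQ1 arm were not used here.

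Of 60664 genes, 60463 matched GENCODE 44, whose exon unions gave the lengths. Genes with a mean of at least 10 were tested with limma (lmFit, eBayes with trend, 8 residual degrees of freedom) on log2(normalized count + 1), a scale that understates changes of low genes, with Benjamini-Hochberg adjustment at 0.05 over 15599 genes. Intervals are 95% intervals of that fit. On simulated data at 24 hours the step recovered 97% of log2 changes of 1 and 62% of changes of 0.5, with 7.02% of calls false over 15502 genes. Only 200 genes were changed in that simulation, whereas 10679 genes were called at 24 hours in the data, so these rates need not hold there.

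The members and the other lists were chosen with earlier results of these data known. All members are named, and of each other list the 2 that rose most and the 2 that fell most (mean of both times) among those called in the same direction at both times, besides *RBBP4*, *EZHIP*, *EPOP*, *KDM6A*, *KDM6B*, *NSD2* and *CDKN2A*. A result that this rule would name is not reported here. *SUZ12P1* was named as a copy of a member, and *CUTA* and *TXLNG* for their overlap with one. Alternatives covered the pseudocount (0.5, 10), the minimum mean (none, 100), the scaling (7 stably expressed genes, equal totals, quantiles, TMM), a replicate block, only the 2 groups compared, eBayes without trend, edgeR and DESeq2 on the recovered reads, the length behind the shares, and leaving out each library. The software was limma 3.58.1, DESeq2 1.42.0 and edgeR 4.0.16 in R 4.3.3, with Python 3.11.15, pandas 2.3.3, numpy 2.4.6 and matplotlib 3.10.9.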

Additional observations from a re-analysis of the deposited data

Results flagged for a closer look

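For 13 genes named in the text the AZD5153 effect at 48 hours differed from that at 24 hours by the test of the difference itself (limma, adjusted p under 0.05), given here as the later minus the earlier log2 fold change. Among the PRC2 members the difference was 0.81 for *SUZ12*, 0.36 for *EED*, 0.33 for *RBBP7* and 0.31 for *EZH2*. The *SUZ12* effect turned from a fall to a rise, and the other 3 falls were smaller at the later time. The 48-hour call of *SUZ12* and the calls of the *EED* and *EZH2* differences were lost under some of the alternatives given above. Outside the members the difference was 1.25 for *SKIDA1* (adjusted p = 1.8e-04) and 0.69 for *MEIS2* (adjusted p = 2.7e-05), whose rises were larger at 48 hours. It was 0.46 for *NSD2*, 0.51 for *PAX6* and 1.14 for *E2F2*, whose falls were smaller, and -0.35 for *BCOR*, whose fall was larger (adjusted p = 0.036). For *RRM2*, which was named after its values were seen, the difference was 1.37 (adjusted p = 1.2e-08), and a fall turned into a rise. For the glioma cell markers *NES* and *CSPG4*, also named after their values were seen, it was -0.44 (adjusted p = 0.0026) and 0.47 (adjusted p = 0.014), so the fall of *NES* was larger and that of *CSPG4* smaller at 48 hours.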

How the results depend on the processing

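The number of members called was the same with a replicate block as without it, 8 at 24 hours, 8 at 48 hours, 4 in the difference and 7 in DMSO. Same-numbered libraries did not deviate together (correlations of their deviations from -0.15 to 0.04), so the numbers were not taken as pairs. Of 510 values of members under alternatives that kept all libraries, 487 kept their direction and side of the threshold, 10 lost the call, 9 gained it and 4 changed sign without being called. Of 480 values with a library left out, 453 kept both, 15 lost the call, 5 gained it and 7 changed sign, of which 1 was then called, *PHF1* at 24 hours without replicate 1 of DMSO (-0.222, adjusted p = 0.031). The causes were not tested.

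The sign changes in members were those of *PHF1* at 24 hours, with 7 stably expressed genes (-0.008), equal totals (-0.118), edgeR (-0.016) and DESeq2 (-0.028). With a library left out, its values ran from -0.222 to 0.141 at 24 hours, from -0.094 to 0.023 at 48 hours and from -0.194 to 0.169 for the difference, and the *EZH1* difference ran from -0.125 to 0.006. *KDM6A* at 24 hours was -0.005 with 7 stably expressed genes, -0.114 with equal totals and -0.041 to 0.073 with a library left out. *KDM6B* at 48 hours was 0.030 with quantiles and -0.156 to 0.003 with a library left out, and *KRT8* at 24 hours was 0.044 with quantiles.

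The balance over all 15599 genes tested moved with the scaling. The main fit called 5287 higher and 5392 lower at 24 hours, and 5159 and 5294 at 48 hours. Equal totals gave 4340 and 6293 at 24 hours and 3896 and 6511 at 48 hours. Quantiles gave 5696 and 4973, then 5800 and 4853. Counts of higher genes at 24 hours moved with equal totals to 3 for PRC1, 0 for the demethylases and lysine 36 enzymes and 1 for the developmental genes. The demethylase list went to 1 with 7 stably expressed genes or only the 2 groups compared. At 48 hours equal totals gave 1 for the other PRC2 subunits, 1 higher and 6 lower for PR-DUB and 1 for the demethylase list. Quantiles gave 5 for PRC1, 1 higher and 5 lower for PR-DUB and 1 for the demethylase list, and only the 2 groups compared gave 7 for PRC1. The demethylase list also had 1 with no minimum mean, TMM, the replicate block, eBayes without trend, edgeR and DESeq2, and the developmental list had 4 with no minimum mean. With a library left out, the demethylase list had 1 to 2 at 24 and 1 to 3 at 48 hours, the developmental list 1 to 3 at 24 hours and PRC1 3 to 6 at 48 hours.

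In the order DMSO and AZD5153 at 24 hours, then DMSO and AZD5153 at 48 hours, the *EZH1* share was 23.79%, 48.5%, 36.49% and 57.55% with the longest transcript and 24.31%, 49.22%, 37.15% and 58.25% with no length. The PRC2.2 share was 28.59%, 44.95%, 28.68% and 37.93% with the longest transcript, and with no length it moved to 60.96% in AZD5153 at 24 hours and to 40.12% and 55.29% in DMSO and AZD5153 at 48 hours. The direction between treatments was the same throughout.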
